A study of Rattus norvegicus with 3 samples.

Results

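Genes of fatty acid oxidation, binding and synthesis were examined in the inner medulla of the rat kidney after lithium treatment. Members were the genes with a single symbol in the array annotation that belong to the acyl-CoA dehydrogenase, oxidase, synthetase, thioesterase and thiolase families, the carnitine palmitoyltransferases, the fatty acid-binding proteins, the hydroxyacyl-CoA dehydrogenases, the enoyl-CoA hydratases and isomerases or the desaturases. Acaca, Acacb, Acly, Scd, Me1, Lpl, Lipe and Decr1 were added by name, whereas Fasn, Crat and the Elovl genes, which the same choice would take, were not among the named probes. This gave 47 of 4390 named genes, of which 35 had a value on all 3 arrays. The choice used symbols and no measured value, but it was made with earlier results of these data known.

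Each of 3 dual-colour arrays compared inner medulla RNA of rats given lithium for 1 month (red channel) with that of control rats (green channel). RNA of 2 rats was pooled per channel on arrays 1 and 2 and that of 1 rat was used on array 3, and the labels number all of these rats apart. The labels state no strain, sex, age or dose. Lithium given to rats is a model of nephrogenic diabetes insipidus, a failure of the kidney to concentrate urine under vasopressin, and the comparison asks which medullary transcripts differ in that state. Each probe's value is a log ratio of unknown base, so folds are given for base 10 and for base 2. Values above 0 were read as higher with lithium, which is likely because the labels put lithium RNA in channel 1. Aqp2, the water channel that lithium is known to lower, read 0.11, 0.26 and 0.14 on arrays 1, 2 and 3, so the direction of every value here rests on the channel labels alone. No array had the dyes swapped, so dye and treatment cannot be told apart. A ratio carries no level, so the labelled tissue could not be checked against its markers. In RNA of whole tissue, fewer cells of a type and less RNA per cell cannot be told apart either.

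Fatty acids enter cells and bind to small cytosolic carrier proteins, are activated to acyl-CoA, and pass into mitochondria as carnitine esters, where beta-oxidation shortens them to acetyl-CoA. Peroxisomes carry out a related cycle on very long and branched chains, and synthesis runs in the cytosol from acetyl-CoA and NADPH. The inner medulla is poorly oxygenated and depends largely on glycolysis, whereas the kidney cortex and outer medulla are known for heavy use of fatty acids. Peroxisome proliferator-activated receptors, which bind fatty acids, control many of these genes through a direct repeat of the hexamer AGGTCA.

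No fatty acid gene passed the test, and most of their log ratios of lithium-treated over control medulla lay near 0. The lowest mean log ratios belonged to Fabp4, Acadm, Fabp5, Acaa1a and Me1, which lay below 0 on every array. Among fatty acid probes with a value on all 3 arrays, a single probe of Fabp4 had the lowest mean and passed when each probe was tested on its own, while the second probe of the gene lay near 0. Across all 3819 genes or unnamed probes with a value on every array, 0.445% passed a limma adjusted p of 0.05 (0.236% higher and 0.209% lower), against 0 of the 35 fatty acid genes. At an unadjusted limma p of 0.05, 7 of the 35 passed (20%, against 17.2% of all features). Of these 7, 6 were lower, which is 17.1% of the members against 7.52% of all features, and 1 was higher, 2.86% against 9.71%. Of the 35, 7 lay below 0 on all 3 arrays (20%, against 14.6% of all features) and 6 above 0 on all 3 (17.1%, against 24.1%).

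The median of the members' mean log ratios was −0.0133, against 0.0133 over all features tested. Means above 0 were found for 16 members (45.7%, against 55.7% of all features) and means below 0 for 19 (54.3%, against 42.7%). The lean below 0 did not hold without array 1 or without array 3: the split was then 18 above and 16 below each time, and the median 0.005. The median over all features was then 0.015 and 0.02, so the members' median still lay below it. Without array 2 the median was −0.005, against 0.005 over all features, and the split 15 above and 20 below. With arrays centred within their printed blocks 11 lay above and 23 below. The members' medians on arrays 1, 2 and 3 were 0.005, −0.01 and −0.01, where those of all features were 0.01, 0.04 and 0.

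**Figure D1:**
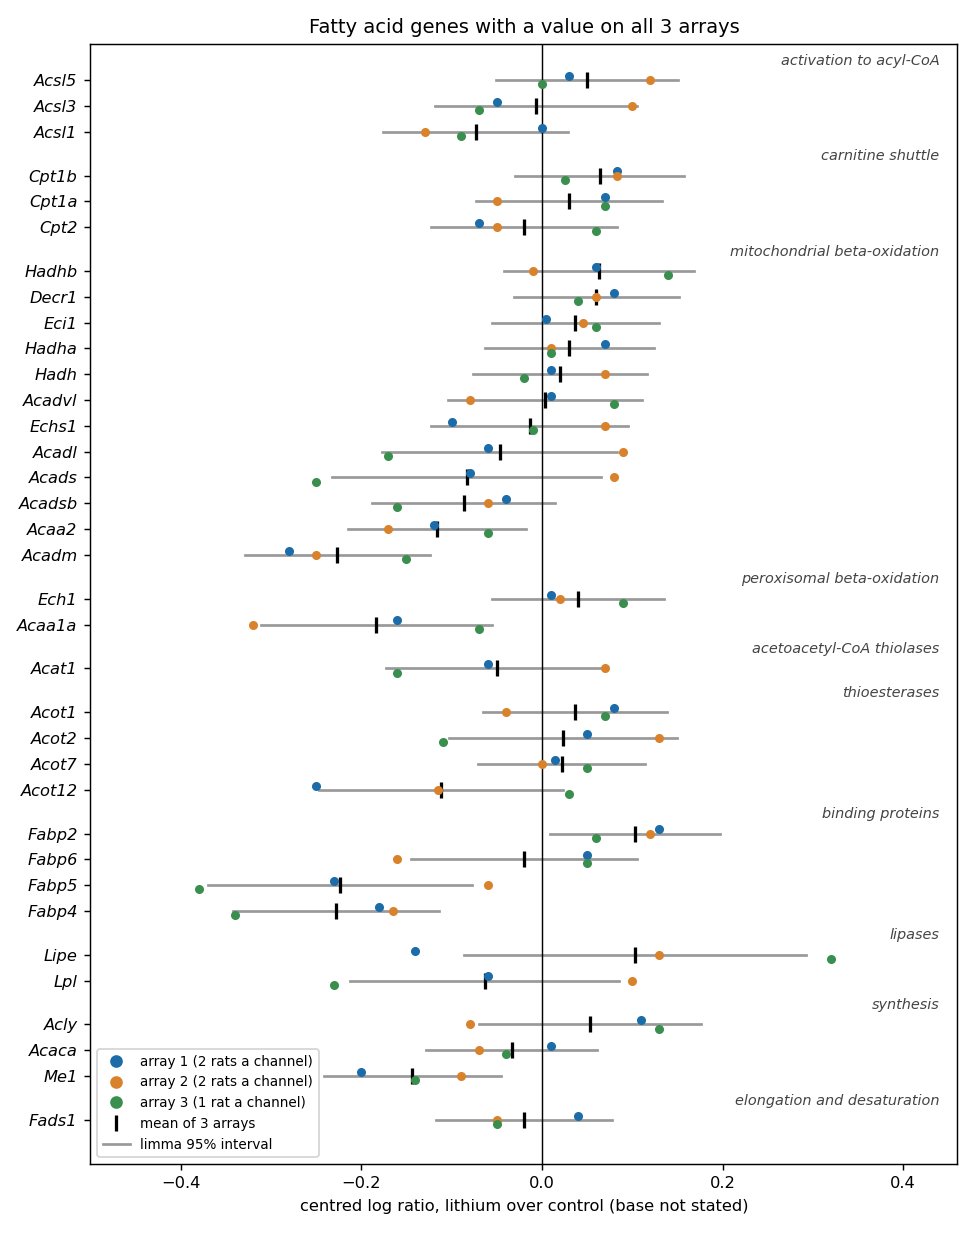
Centred log ratio of lithium over control (x axis, base not stated) for the 35 fatty acid genes with a value on all 3 arrays, grouped by role (y axis). Points are arrays, black ticks are means of 3 arrays and grey lines are limma 95% intervals. Acadm, Acaa2, Acaa1a, Fabp4, Fabp5 and Me1 have intervals below 0, Fabp2 has one above 0, and the other 28 intervals include 0.

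Acadm, the medium-chain acyl-CoA dehydrogenase of mitochondria, had the smallest p-value of the members. It read −0.28, −0.25 and −0.15 on arrays 1, 2 and 3, below 0 on all of them. Its mean was −0.23 ± 0.07 (SD, n = 3), with a limma 95% interval from −0.33 to −0.12. That is 1.69-fold lower in base 10 or 1.17-fold lower in base 2. Its limma adjusted p was 0.0918, and it held rank 47 by p-value among the 3819 features tested. Acadm passed under 3 other settings, with adjusted p-values of 0.0317 with arrays brought to an equal spread, 0.0236 with a robust prior and 0.00128 with array weights. In these fits 98, 94 and 1055 of the 3819 features passed, against 17 in the fit as designed. With array 1, 2 or 3 left out no feature of the table passed.

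The other chain-length classes of acyl-CoA dehydrogenase, which carry out the same first step of the cycle, lay nearer to 0. Acadvl, for very long chains, read 0.01, −0.08 and 0.08 on the 3 arrays (mean 0.00333, limma adjusted p = 0.973). Acadl, for long chains, read −0.06, 0.09 and −0.17 (mean −0.05), and Acads, for short chains, read −0.08, 0.08 and −0.25 (mean −0.08). Both lay below 0 on arrays 1 and 3 and above 0 on array 2, so their arrays did not share a sign. Acadsb, which acts on short branched chains from isoleucine, lay below 0 on every array with −0.04, −0.06 and −0.16 (mean −0.09 ± 0.06, SD, n = 3, limma adjusted p = 0.353).

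The later steps of mitochondrial beta-oxidation were split between small means above and below 0. Hadha and Hadhb, the subunits of the trifunctional protein, read 0.07, 0.01 and 0.01 and 0.06, −0.01 and 0.14. Decr1, the dienoyl-CoA reductase for unsaturated chains, read 0.08, 0.06 and 0.04, and Eci1, the enoyl-CoA isomerase, read 0.005, 0.045 and 0.06. Decr1, Eci1 and Hadha lay above 0 on every array, at means of 0.06, 0.04 and 0.03. Eci1 did so only as the average of 2 probes, which read 0.04, −0.02 and 0.17 and −0.03, 0.11 and −0.05. Hadh, the short-chain hydroxyacyl-CoA dehydrogenase, had a mean of 0.02, and Echs1, the short-chain enoyl-CoA hydratase, one of −0.01. Acaa2, the thiolase that releases acetyl-CoA in the last step, read −0.12, −0.17 and −0.06. Its mean was −0.12 ± 0.06 (SD, n = 3), with a limma adjusted p of 0.229. Of all 12 mitochondrial beta-oxidation genes 6 had a mean above 0 and 6 below, 3 lay above 0 and 3 below 0 on every array, and none passed.

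In peroxisomes, Acaa1a, the thiolase of the peroxisomal cycle, read −0.16, −0.32 and −0.07 on arrays 1, 2 and 3. Its mean was −0.18 ± 0.13 (SD, n = 3), which is 1.53-fold lower in base 10 or 1.14-fold in base 2, with a limma adjusted p of 0.176. All 3 values lay below 0, and those of arrays 2 and 3 differed by more than the size of the mean of all 3. Ech1, a dienoyl-CoA isomerase found in peroxisomes and mitochondria, read 0.01, 0.02 and 0.09. The oxidases Acox2 and Acox3, which start the peroxisomal cycle on branched chains, lacked a value on array 3. Acox2 read 0.15 and −0.03 on arrays 1 and 2, and Acox3 read −0.10 on array 1, its only value.

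Me1, the cytosolic malic enzyme that supplies NADPH to fatty acid synthesis, read −0.20, −0.09 and −0.14. The mean of −0.14 ± 0.06 (SD, n = 3) is 1.39-fold lower in base 10 or 1.10-fold in base 2, and its limma adjusted p was 0.176. All 3 values lay below 0. Acly, which makes cytosolic acetyl-CoA from citrate, read 0.11, −0.08 and 0.13, and Acaca, the acetyl-CoA carboxylase of synthesis, read 0.01, −0.07 and −0.04. Acacb, the carboxylase whose malonyl-CoA restrains carnitine palmitoyltransferase, read −0.11 and −0.35 on arrays 1 and 2 and had no value on array 3. Among the desaturases, Fads1 read 0.04, −0.05 and −0.05. Fads2 read −0.18 and −0.09 and Scd, the stearoyl-CoA desaturase, read −0.08 and −0.14 on arrays 1 and 2, with no value on array 3.

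Promoter sequences of RefSeq (assembly GRCr8, from 250 bases before to 50 after the start) were found for 36 of the 47 members, in 37 windows because Acot7 has 2. Those of Acadm, Acaa1a and Me1, the enzymes with the lowest means in mitochondria, peroxisomes and cytosol, are shown so that their control regions can be compared. Their positions are chr2:245542815-245543114 on the minus strand, chr8:127957231-127957530 on the plus strand and chr8:96540195-96540494 on the minus strand. Fabp1 (chr4:104749090-104749389, plus strand) is shown because it was the only one of the 37 windows with a match to AGGNCA repeated in direct orientation with 1 base between, a relaxed form of the receptor's direct repeat, searched on both strands. Capitals mark the GC box GGGCGG on either strand in the first 3 and the direct repeat in Fabp1.
Acadm: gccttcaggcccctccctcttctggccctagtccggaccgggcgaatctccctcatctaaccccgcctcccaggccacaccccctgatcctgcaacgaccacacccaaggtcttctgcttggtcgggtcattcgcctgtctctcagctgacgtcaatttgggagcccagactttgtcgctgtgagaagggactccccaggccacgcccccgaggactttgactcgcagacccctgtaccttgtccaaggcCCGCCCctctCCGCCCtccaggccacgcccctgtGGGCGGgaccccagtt
Acaa1a: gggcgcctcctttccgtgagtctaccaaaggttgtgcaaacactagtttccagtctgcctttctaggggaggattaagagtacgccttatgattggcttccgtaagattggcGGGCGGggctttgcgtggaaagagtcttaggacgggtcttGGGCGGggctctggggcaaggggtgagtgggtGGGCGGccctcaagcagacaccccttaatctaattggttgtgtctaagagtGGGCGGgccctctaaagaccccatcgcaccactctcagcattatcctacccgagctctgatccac
Me1: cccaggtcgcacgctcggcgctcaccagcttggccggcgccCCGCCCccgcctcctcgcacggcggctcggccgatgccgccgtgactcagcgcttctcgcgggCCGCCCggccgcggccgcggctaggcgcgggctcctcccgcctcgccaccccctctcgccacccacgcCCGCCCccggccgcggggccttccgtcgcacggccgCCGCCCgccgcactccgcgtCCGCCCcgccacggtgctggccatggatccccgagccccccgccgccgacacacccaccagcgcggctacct
Fabp1: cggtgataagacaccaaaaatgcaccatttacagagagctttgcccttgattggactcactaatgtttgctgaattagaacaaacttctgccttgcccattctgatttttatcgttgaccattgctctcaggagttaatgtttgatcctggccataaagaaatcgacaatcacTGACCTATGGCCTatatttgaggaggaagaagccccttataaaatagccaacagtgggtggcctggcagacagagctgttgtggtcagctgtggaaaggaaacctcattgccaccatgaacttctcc

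The GC box occurred 3, 4 and 5 times in the windows of Acadm, Acaa1a and Me1, counting both strands. It was present in 22 of the 37 member windows (59.5%), in 33.1% of all 33469 windows of the table and in 41.8% of those of protein-coding genes. The direct repeat was present in 0.415% of all windows. In Fabp1 it lies on the minus strand, as TGACCTATGGCCT in the orientation printed. Fabp1, the liver fatty acid-binding protein and a known target of these receptors, read 0.12 and −0.33 on arrays 1 and 2 and had no value on array 3. A match describes the letters of a window only.

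Among the fatty acid-binding proteins, Fabp4, Fabp5 and Fabp9 had the lowest values and Fabp2 the highest. Fabp5, the epidermal form, read −0.23, −0.06 and −0.38 on arrays 1, 2 and 3, all below 0 but far apart. Its mean was −0.22 ± 0.16 (SD, n = 3), which is 1.67-fold lower in base 10 or 1.17-fold in base 2, with a limma adjusted p of 0.169. Fabp9, known from testis, read −0.37 and −0.34 on arrays 1 and 2 and had no value on array 3. In the RefSeq gene table Fabp4 and Fabp9 are neighbours on chromosome 2, where Fabp5 also lies beyond the related gene Pmp2. Fabp2, the intestinal form, read 0.13, 0.12 and 0.06, and its mean of 0.10 ± 0.04 (SD, n = 3) had a limma adjusted p of 0.255. Fabp6, which binds bile acids in the ileum, read 0.05, −0.16 and 0.05. Fabp7, the brain form, read −0.04 on array 1 and had no other value.

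Fabp4, the form of adipocytes and of capillary endothelium, was measured by 2 probes that differed widely. Averaged, they read −0.18, −0.165 and −0.34 on arrays 1, 2 and 3, with a mean of −0.23 ± 0.10 (SD, n = 3) and a limma adjusted p of 0.117. The first probe read −0.40, −0.44 and −0.57, far below 0 on every array. The second read 0.04, 0.11 and −0.11, on both sides of 0, although the annotation ties both to the same transcript. With each of 4250 probes tested on its own, the first had a mean of −0.47 ± 0.09 (SD, n = 3) and a limma adjusted p of 0.0217, which is 2.95-fold lower in base 10 or 1.39-fold in base 2. Only 0.259% of probes passed in that fit, and this probe was the single one of 39 fatty acid probes to do so. The second had a mean of 0.01 ± 0.11 and an adjusted p of 0.930. Among 300 genes with at least 2 probes on all arrays, the gap of 0.48 between the probe means of Fabp4 was the widest, and the median gap was 0.0767. The limma adjusted p of the first probe was 0.745, 0.302 and 0.426 without array 1, 2 and 3, at values of −0.505, −0.485 and −0.42. No probe passed in these fits, where 183, 668 and 460 probes had an unadjusted p under 0.05. Probe sequences were not used here, and which of the probes reports Fabp4 transcript was not tested.

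**Figure D2:**
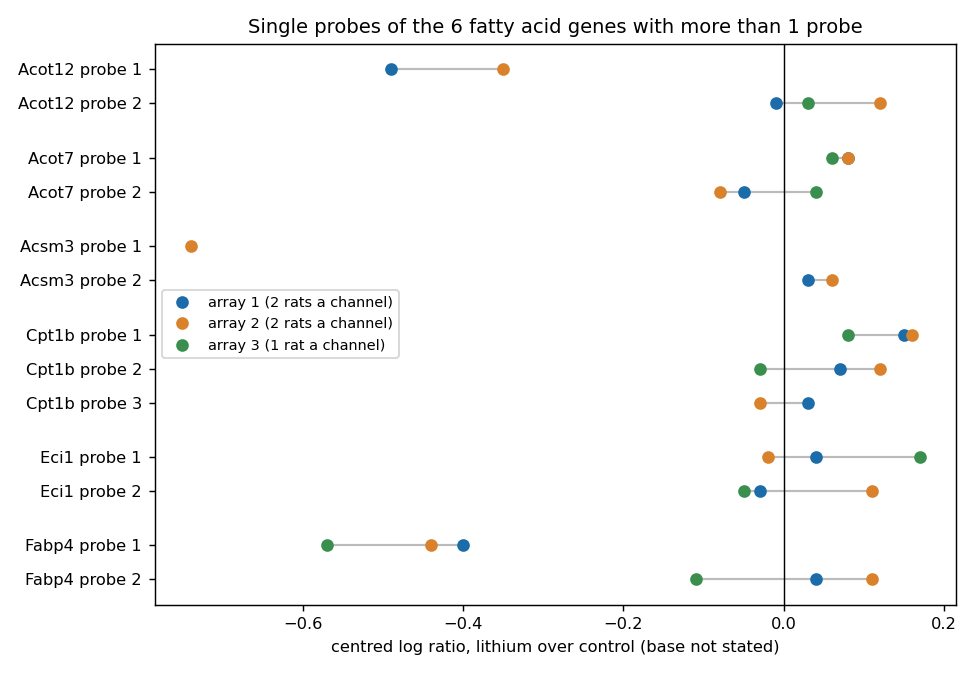
Centred log ratio of lithium over control (x axis, base not stated) of every probe of the 6 fatty acid genes with more than 1 probe (y axis), with a point per array and a line over their range. Acot7 probe 1 read 0.08 on arrays 1 and 2, so those points overlap. The first probes of Fabp4, Acot12 and Acsm3 lie at −0.35 or lower, and the second probes of these genes lie between −0.11 and 0.12.

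Acot12 and Acsm3 had probes that disagreed in the same manner. Acot12, a cytosolic acetyl-CoA hydrolase, read −0.25, −0.115 and 0.03 when averaged, a mean of −0.11 ± 0.14 (SD, n = 3). Its first probe read −0.49 and −0.35 on arrays 1 and 2 and had no value on array 3. The second read −0.01, 0.12 and 0.03, so the averaged value on array 3 comes from that probe alone and the SD mixes probes. Acsm3, a medium-chain acyl-CoA synthetase, read −0.74 on array 2 with its first probe and 0.03 and 0.06 on arrays 1 and 2 with its second. The probe means of Eci1, Acot7 and Cpt1b were closer, with gaps of 0.0533, 0.103 and 0.0767 between those measured on all arrays. The median gap over 300 genes was 0.0767. The probes of Eci1 still had opposite signs on every array, and the probe means of Acot7 were 0.07 and −0.03. The third probe of Cpt1b had no value on array 3.

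The remaining thioesterases, which hydrolyse acyl-CoA back to free fatty acid, lay near 0. Acot1, cytosolic, read 0.08, −0.04 and 0.07, and Acot2, its mitochondrial neighbour on chromosome 6, read 0.05, 0.13 and −0.11. These genes are close paralogs, so a probe may bind both transcripts. Acot7, the brain acyl-CoA hydrolase, read 0.015, 0 and 0.05 as the average of 2 probes. Acat1, the mitochondrial acetoacetyl-CoA thiolase of ketone body metabolism, read −0.06, 0.07 and −0.16.

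Of 7 activation genes 3 had a value on all arrays, and these and the 3 genes of the carnitine shuttle had means between −0.07 and 0.06. The other 4, Acsl4, Acsl6, Acsm2 and Acsm3, had no value on array 3. On arrays 1 and 2 Acsl4 read −0.16 and −0.43, and Acsm3 read 0.03 and −0.34. The value of Acsm3 on array 2 averages probes at −0.74 and 0.06. The long-chain acyl-CoA synthetase Acsl1 read 0, −0.13 and −0.09, Acsl3 read −0.05, 0.10 and −0.07, and Acsl5 read 0.03, 0.12 and 0. Their means of −0.07, −0.00667 and 0.05 had limma adjusted p-values from 0.417 to 0.955. Cpt1a and Cpt1b, the liver-type and muscle-type carnitine palmitoyltransferases of the outer mitochondrial membrane, had means of 0.03 ± 0.07 and 0.06 ± 0.03 (SD, n = 3). Cpt1b lay above 0 on every array, at 0.0833, 0.0833 and 0.025, while Cpt1a read 0.07, −0.05 and 0.07. Cpt2, which rebuilds acyl-CoA inside the mitochondrion, read −0.07, −0.05 and 0.06. The limma 95% intervals of all these genes included 0, and the widest, that of Acsl3, ran from −0.12 to 0.11.

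The lipases that release fatty acids differed between arrays. Lipe, the hormone-sensitive lipase of stored fat, read −0.14, 0.13 and 0.32 on arrays 1, 2 and 3, on both sides of 0, and its SD of 0.23 was the largest of the 35 members. Lpl, the lipoprotein lipase of capillary walls, read −0.06, 0.10 and −0.23. Their means of 0.10 and −0.06 had limma adjusted p-values of 0.549 and 0.647.

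Members without a value on array 3 numbered 12 of 47 (25.5%, against 24.3% of all features). The 10 that had values on arrays 1 and 2 had medians of −0.095 and −0.235 there, and 6 of them lay below 0 on both. Of all 1083 such features, 65.7% lay below 0 on both, with medians of −0.08 and −0.16. Among the 35 members with all values, 9 (25.7%) lay below 0 on arrays 1 and 2, against 21.9% of all features measured on every array. Acsl4, a synthetase for arachidonic acid (−0.16 and −0.43), Fabp9 and Acacb thus belong to a class of features that read low as a whole. The same class held Acsl6 (0.05 and −0.10) and Acsm2 (−0.14 and −0.06), both acyl-CoA synthetases.

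Arrays 2 and 3 ordered the members least alike. Across the 35 members Pearson's r was 0.43 between arrays 1 and 2, 0.48 between arrays 1 and 3 and 0.17 between arrays 2 and 3. Over all 3819 features it was 0.46, 0.48 and 0.16, so the members shared the pattern of the whole table. In the same order of pairs, 15, 7 and 16 of the 35 members had opposite signs. Of all 3819 features 1310, 1119 and 1662 did. Genes share the arrays and are not independent replicates. Acadl, Acads, Acat1, Acsl3, Echs1 and Lpl lay below 0 on arrays 1 and 3 and above 0 on array 2, and Acadvl, Acly, Acot1, Cpt1a, Fabp6 and Hadhb did the opposite. The share of all features with either pattern was not counted. The 3 arrays held different rats, and a difference between rats and one between arrays cannot be told apart.

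**Figure D3:**
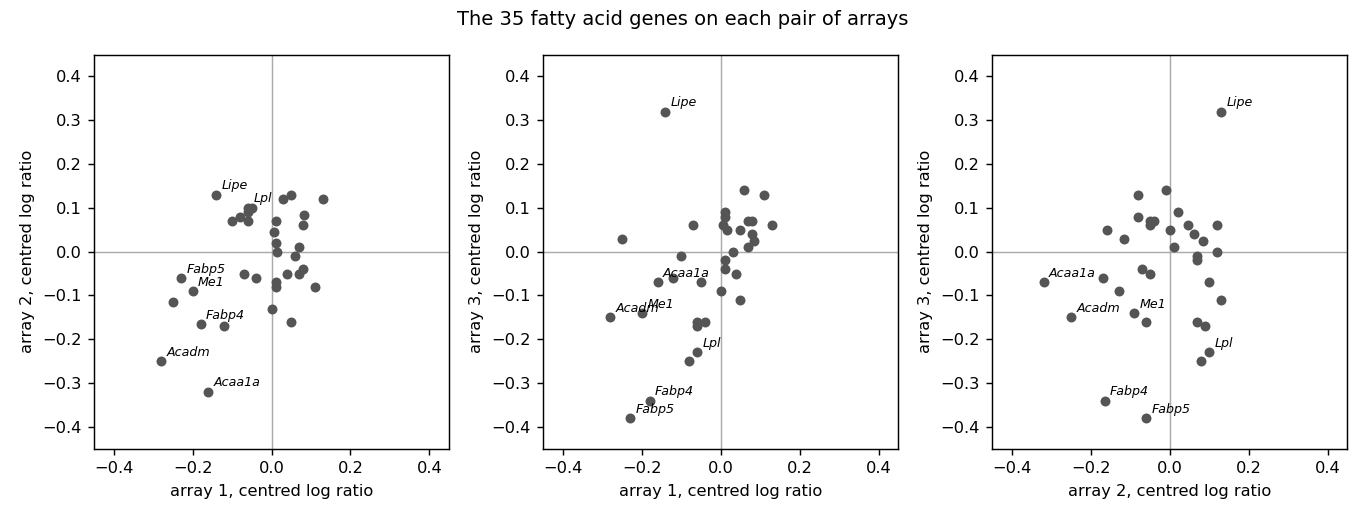
Centred log ratios (base not stated) of the 35 fatty acid genes on arrays 1 and 2, arrays 1 and 3, and arrays 2 and 3, with a point per gene and several genes named. Pearson's r across genes is 0.43, 0.48 and 0.17. Acadm, Fabp4, Fabp5, Acaa1a and Me1 lie below 0 on both axes of every panel, and Lipe changes sign between array 1 and the others.

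Other lipid genes that the symbols above do not take were examined from a list of uptake carriers, oxidation and synthesis partners, glycerolipid enzymes and regulators. This list too was chosen with earlier results of these data known. Of 137 listed genes 60 had a value on every array, and none passed the limma test, against 0.445% of all features. At an unadjusted p of 0.05, 5 were higher and 2 lower (8.33% and 3.33%, against 9.71% and 7.52% of all features). Their median was 0.015, against 0.0133 over all features. Means lay above 0 for 34 of them (56.7%, against 55.7% of all features) and below 0 for 23 (38.3%, against 42.7%).

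Pparg, the receptor that drives adipocyte genes and is also found in the medullary collecting duct, was the lowest of these 60 genes. It read −0.29, −0.43 and −0.20, below 0 on every array, with a mean of −0.31 ± 0.12 (SD, n = 3) and a limma adjusted p of 0.0782. It passed with adjusted p-values of 0.0224 with centring within printed blocks, 0.00857 with arrays brought to an equal spread and 0.00781 with a robust prior. In these fits 20, 98 and 94 of all features passed, against 17 in the fit as designed. Ppara and Ppard, the receptors known for control of oxidation genes, had means of 0.02 ± 0.12 and 0.08 ± 0.12, and their arrays ranged from −0.09 to 0.15 and from 0 to 0.22. Lepr, the leptin receptor, read −0.14, −0.11 and −0.14 (limma adjusted p = 0.176). Prkab1, a regulatory subunit of the AMP-activated kinase, was the highest of the 60 at 0.15, 0.26 and 0.13 (mean 0.18 ± 0.07, SD, n = 3, limma adjusted p = 0.140).

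Partners of oxidation had a median of 0.04 over 13 genes. Etfa, a subunit of the flavoprotein that takes electrons from the acyl-CoA dehydrogenases, read 0.18, 0.05 and 0.18 (mean 0.14 ± 0.08, SD, n = 3, limma adjusted p = 0.194), above 0 where Acadm lay below. Ehhadh, the bifunctional enzyme that acts before Acaa1a in peroxisomes, read 0.15, 0 and 0.12. Slc25a20, the carnitine-acylcarnitine carrier of the shuttle, read −0.07, −0.09 and −0.09 (mean −0.08 ± 0.01, limma adjusted p = 0.323). The 8 synthesis partners had a median of −0.05 and the 8 carriers one of 0.00167. Cd36, a fatty acid translocase, read 0.04 and −0.48 on arrays 1 and 2, and Slc27a2, a transport protein with synthetase activity, read −0.24 and −0.46, with no value on array 3.

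**Figure D4:**
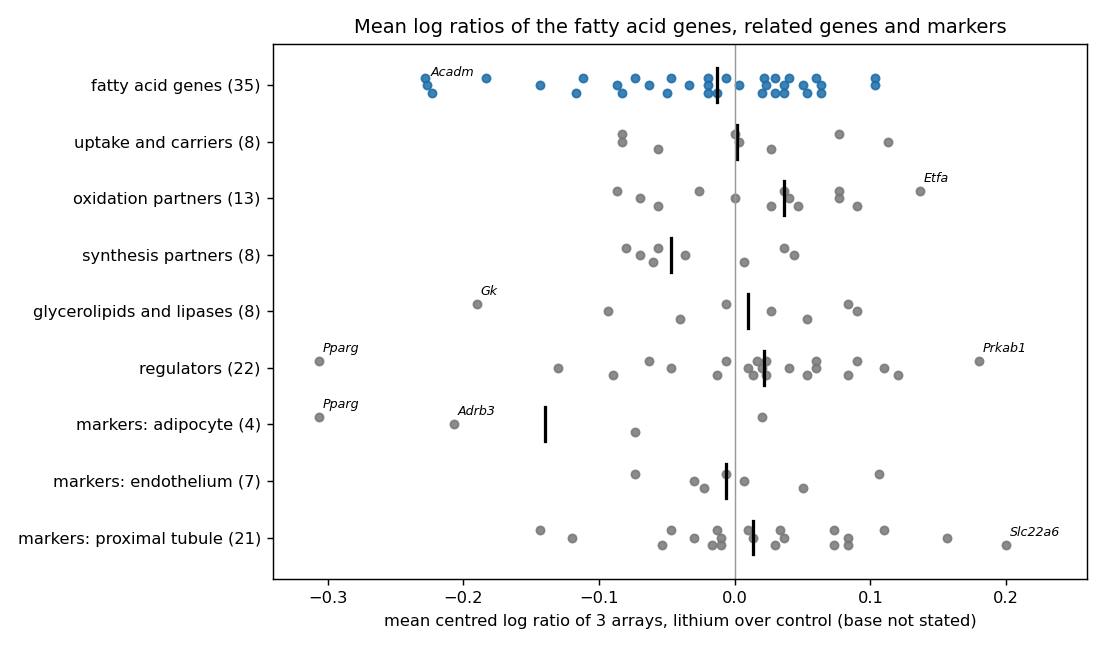
Mean centred log ratio of 3 arrays (x axis, base not stated) for the fatty acid genes, the related lipid genes by group and 3 marker lists (y axis, number of genes in parentheses), with a point per gene and a black line at each median. Pparg, at −0.31, is the lowest point and belongs to the regulators and to the adipocyte markers. The adipocyte median lies at −0.14 and those of the other groups between −0.05 and 0.04.

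Fabp4, Lpl, Lipe and Pparg are also genes of adipocytes. Of 13 adipocyte markers 4 had a value on every array, 3 of them with means below 0 (75%, against 42.7% of all features), and none passed. Adrb3, the adrenoceptor of fat, read −0.24, −0.21 and −0.17 (limma adjusted p = 0.0918), and Cfd, adipsin, read −0.15, 0.07 and −0.14. Ucp1, the uncoupling protein of brown fat, read −0.01, 0.04 and 0.03. The sum of the log ratios of these 4, of which Pparg is one, was −0.69, −0.53 and −0.48 on arrays 1, 2 and 3, and without Pparg it was −0.40, −0.10 and −0.28. Sums below 0 on every array were not particular to fat. Those of the 16 striated muscle markers were −0.42, −1.30 and −0.05, while no other marker list was below 0 on every array. Slc2a4 and Lep read −0.28 and −0.50 and −0.04 and −0.08 on arrays 1 and 2. The part of fat cells in the low values of Fabp4 and Pparg was not tested. The 7 endothelial markers had a median of −0.00667, with 3 means above 0 (42.9%, against 55.7% of all features). The 21 proximal tubule markers had one of 0.0133 with 12 above 0 (57.1%), and the 16 striated muscle markers one of −0.04 with 6 above 0 (37.5%), and none of these passed. Hsd11b2 and Krt19, 2 of the 13 collecting duct markers measured, passed as higher (15.4%, against 0.236% of all features), with a list median of 0.11.

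No fatty acid gene passed in the fit as designed, 2 passed with a robust prior or scaled arrays, where 94 and 98 features passed in all, and 9 passed with array weights, where 1055 features passed.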

How the data were processed

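The deposited table held, per the labels, 1 dual-colour comparison per column for 5760 probes. How the authors corrected and normalized the signals, and the log base of the deposited values, are not given in the sources used here. Deposited column medians were −0.02, −0.04 and 0, and 5582, 5682 and 4287 probes had a value on arrays 1, 2 and 3. Scale, centring and direction stayed unknown, so direction is only likely. No intensities were used, and the number of arrays limits the precision. Probes were named from the platform's public annotation (5064 with 1 symbol, 9 with several and left unnamed, 687 not listed). All 47 members' gene IDs were in a RefSeq table of GRCr8.

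Each array's median was subtracted and probes of 1 gene ID were averaged per array. The 3819 features with a value on every array, 424 of them unnamed probes, were fitted with an intercept-only limma 3.58.1 model in R 4.3.3 (eBayes, two-sided, Benjamini-Hochberg over all features, threshold 0.05). Every SD is over 3 arrays, and intervals are limma's 95% intervals. Every member could be named, with values in full for the 12 of smallest p and the first of each role. In other lists, genes past the threshold or else the first 4 by p could be named, while Aqp2, Ppara, Ppard, Ehhadh, Slc25a20, Cd36, Slc27a2, Lep and Slc2a4 were chosen after their values were seen. So were the promoters and motifs. Members and lists were chosen with earlier results of these data known. In simulated data of 3819 features, shifts of 0.2 were recovered for 47% and shifts of 0.4 for 99% of the changed features, beside 6 false calls. The simulation changed 200 features, whereas 17 passed in the deposited data. With more changed features the adjusted p is easier to pass, so these shares do not give the power of the test here. Acadm, with a mean of −0.227, did not pass. Centring, scaling, features, probes, weights, prior, threshold and each array left out were varied. Python 3.11.15 and matplotlib 3.10.9 made tables and figures.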

Additional observations from a re-analysis of the deposited data

How the results depend on the processing

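All numbers of calls are limma adjusted p under 0.05 unless another threshold is named. The 17 features that passed (9 higher, 8 lower) became 98 with arrays scaled to the same spread (35 higher, 63 lower), 40 with features on at least 2 arrays (4 higher, 36 lower), 11 with every probe on its own, 1055 with array weights, 94 with a robust prior and 49 at an adjusted p of 0.1. Without array 1, 2 or 3 the number was 0 each time, with 172, 606 and 445 at an unadjusted p under 0.05. Array weights rest on 3 arrays. The 0 fatty acid genes became 2 (Acadm and Fabp4) with scaled arrays and with a robust prior, 1 (Fabp4) with every probe on its own, 9 with array weights and 1 (Acadm) at an adjusted p of 0.1, and stayed 0 to 0 with an array left out. The 0 related lipid genes became 1 (Pparg) with block-wise centring, scaled arrays, a robust prior and an adjusted p of 0.1, and 20 with array weights.

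The fatty acid genes' median of −0.0133 was −0.0333 without centring, −0.03 with centring on features measured on all arrays, −0.025 with features on at least 2 arrays and between −0.005 and 0.005 with an array left out. The related genes' median of 0.015 was −0.005, −0.00167 and 0 under the first 3 of these and between 0.005 and 0.015 with an array left out. The median of all features, 0.0133 in the fit as designed, was −0.00667, −0.00333 and −0.005 under the same 3 settings. With an array left out it lay between 0.005 and 0.02. Each time the fatty acid genes' median was below that of all features. Members with a mean above 0 numbered 11 to 18 over all settings.

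Some members' signs turned, and as none had passed this says nothing of called genes. Acly and Acot12, among them, passed with array weights (limma adjusted p = 0.0399 and 0.00821). Acadvl turned to −0.0167 without centring, −0.0133 with centring on features on all arrays and −0.01 within blocks, where Acly (−0.00167), Acot2 (−0.01) and Ech1 (−0.015) turned too. Acot12 turned to 0.0467 by its second probe, and Fabp6 (0.0358), Fads1 (0.0242) and Lipe (−0.0718) with array weights. With an array left out, the values ran from −0.115 to 0.015 for Acadl, −0.035 to 0.045 for Acadvl, −0.11 to 0.005 for Acat1, −0.03 to 0.09 for Acot2, −0.06 to 0.025 for Acsl3, −0.06 to 0.005 for Cpt2, −0.055 to 0.03 for Echs1, −0.055 to 0.05 for Fabp6, −0.005 to 0.04 for Hadh, −0.005 to 0.225 for Lipe and −0.145 to 0.02 for Lpl. For the first probe of Fabp4, settings chosen after seeing the data kept the call without centring, within blocks, with scaled arrays, with probes on at least 2 arrays and with a robust prior, at adjusted p-values from 6.4e-06 to 0.0412, and lost it with any array left out. Each log ratio sets lithium against control within an array, so the test of the mean against 0 already pairs the channels. The causes of these differences were not tested. Missing intensities leave signal over background unknown.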
